A study of Mus musculus with 24 samples.

Results

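Squamous epithelium such as epidermis, oral mucosa and oesophagus builds a tough outer layer as its cells move away from the basal layer, and 40 genes of this programme were followed here in organoids of the mouse salivary gland. They were taken by gene symbol from a given list, out of 47643 genes in the count tables. That list was chosen with earlier results of these data known. Of the 40, 38 had at least 1 count in some library and 30 passed the filter on low counts and were tested. Klk11, a kallikrein protease, and Rhcg, an ammonium transporter of squamous surfaces, had no count in any of the 24 libraries, which allows a level of up to 0.0565 CPM, the counts of a gene scaled to a common library size, over all of them.

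The organoids were grown in Matrigel from cells labelled as salivary gland stem/progenitor cells of C57BL/6 mice, in DMEM-12 medium with N2, EGF, FGF2, insulin, dexamethasone and the kinase inhibitor Y-27632, which all groups shared. Donor glands had received irradiation (IR) or a sham treatment (sham-IR, called sham here), and organoids were derived 14 or 90 days after it. Organoids of passage 1 and of passage 2 were sequenced from the 3' end of their transcripts. This gave 8 groups of 3 libraries: sham and IR at day 14 passage 1, day 14 passage 2, day 90 passage 1 and day 90 passage 2. Neither the radiation dose nor the age or sex of the mice is stated in the labels, which also do not say whether the replicates came from separate animals or cultures. A p-value here therefore reflects only how much these libraries varied, and that variation may be technical.

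When a keratinocyte differentiates, it exchanges the basal keratins for suprabasal ones and lays down precursor proteins such as involucrin and the small proline-rich proteins under its membrane. Transglutaminases crosslink these precursors into the cornified envelope, and desmosomes modified with corneodesmosin hold the dead cells together until kallikrein proteases cut them, a step that serpins and other inhibitors restrain. Stressed or wounded squamous epithelium switches on another set, the keratins Krt6a, Krt6b and Krt16. Salivary ducts do not cornify in the healthy gland, but squamous metaplasia of ducts is a known reaction of salivary tissue to injury.

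Promoter sequences from the mouse RefSeq table (build GRCm38.p6, 250 bases before to 50 after a start site) were matched for 28 of the 40 members, with 38 start sites. The 250 bases before the start are printed for 5 of them. Sbsn, Dmkn and Krtdap are shown because they are consecutive protein-coding genes and all were lower after IR at day 90 passage 2. Ivl is shown because its call for IR at day 90 passage 2 held under every alternative tried. Sprr1b is shown because it is an envelope precursor that was not called there. Each runs 5′ to 3′ on the strand of its gene, and capitals mark matches to the AP-1 motif TGANTCA or the TATA motif TATAAA.
Sbsn chr7:30751221-30751470 (+ strand): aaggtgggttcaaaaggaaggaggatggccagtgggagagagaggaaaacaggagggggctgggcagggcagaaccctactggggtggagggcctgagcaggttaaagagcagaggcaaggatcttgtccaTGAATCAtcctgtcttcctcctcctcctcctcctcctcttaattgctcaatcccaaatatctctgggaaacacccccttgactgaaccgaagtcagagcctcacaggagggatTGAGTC
Dmkn chr7:30763506-30763755 (+ strand): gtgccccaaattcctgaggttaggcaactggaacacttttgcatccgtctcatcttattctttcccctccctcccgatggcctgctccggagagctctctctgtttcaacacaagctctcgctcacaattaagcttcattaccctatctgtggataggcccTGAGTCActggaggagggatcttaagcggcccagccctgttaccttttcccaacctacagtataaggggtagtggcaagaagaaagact
Krtdap chr7:30787655-30787904 (+ strand): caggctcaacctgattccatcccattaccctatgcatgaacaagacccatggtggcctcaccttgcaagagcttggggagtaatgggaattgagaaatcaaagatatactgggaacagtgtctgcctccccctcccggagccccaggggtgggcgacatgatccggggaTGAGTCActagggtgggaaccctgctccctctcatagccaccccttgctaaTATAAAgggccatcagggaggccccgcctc
Ivl chr3:92573736-92573985 (- strand): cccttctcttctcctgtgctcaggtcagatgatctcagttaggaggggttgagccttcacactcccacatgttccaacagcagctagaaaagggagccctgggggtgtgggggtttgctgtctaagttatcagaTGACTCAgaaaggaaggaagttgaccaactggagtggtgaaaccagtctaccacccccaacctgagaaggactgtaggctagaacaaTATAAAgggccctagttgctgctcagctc
Sprr1b chr3:92438780-92439029 (- strand): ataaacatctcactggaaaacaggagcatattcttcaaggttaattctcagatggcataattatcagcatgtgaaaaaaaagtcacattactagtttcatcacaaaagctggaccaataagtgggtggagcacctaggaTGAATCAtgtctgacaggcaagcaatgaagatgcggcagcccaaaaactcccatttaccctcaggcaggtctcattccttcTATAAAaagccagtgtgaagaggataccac
The AP-1 motif, bound by Fos and Jun proteins and known from many keratinocyte genes, starts at −119 and −6 in Sbsn, −89 in Dmkn, −81 in Krtdap, −116 in Ivl and −111 in Sprr1b. The match at −6 in Sbsn runs past the start site, so its last base is not printed. A TATA match starts at −30 in Krtdap, −29 in Ivl and −30 in Sprr1b. Searched on both strands over the whole 300 bases, TGANTCA occurred in 42.1% of the 38 member promoters and in 7.81% of all 32851 promoters of the table. TATAAA on the gene's strand occurred in 31.6% and 8.32%. AACCNGTT, the grainyhead motif, occurred in 5.26% and 2.09%, and CCGTTA, bound by Ovo-like factors, in 0% and 2.76%, both searched on both strands. These motifs do not overlap each other in the printed sequences. Of 11 members with a promoter that were called lower at day 90 passage 2, 5 held the AP-1 motif, against 6 of 9 that were tested and not called there. The match is a description of the letters, and no binding was measured.

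The libraries held between 1151608 and 3189466 gene counts each, of which Gm42418, a predicted gene at a ribosomal RNA repeat, made up 11.8% to 29.0%. The basal duct markers Krt5, Krt14, Krt15, Trp63, Itga6 and Itgb4 and the 7 luminal duct markers were all detected, with summed levels of 1866 to 10238 and 999 to 4159 CPM per library. Acinar markers summed to 36.2 to 1994 CPM, with Pip at 28.8% to 99.0% of the sum, and myoepithelial markers to 1.99 to 36.5 CPM. Fibroblast markers (0 to 3.85 CPM, Col3a1 at 0 counts) and endothelial markers (0 to 2.05 CPM, Tie1 at 0 counts) were at or near 0. Leukocyte markers summed to 0.406 to 50.5 CPM, most of their counts from the macrophage genes Lyz2 and Cd68, while the T cell gene Cd3e and the B cell gene Cd79a had 1 count each in all libraries together. In the squamous genes 6 libraries were the highest or the lowest of their 3 replicates in at least 20 of the 30 tested members. Sham replicate 1 was the highest in 27 and sham replicate 2 the lowest in 24 at day 90 passage 1. IR replicate 3 was the lowest in 26 and IR replicate 2 the highest in 21 at day 14 passage 1. At day 90 passage 2, sham replicate 1 was the highest in 22 and sham replicate 2 the lowest in 20.

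The summed level of the 40 members moved in opposite directions after IR at the first and the last of the 4 settings. In organoids of day 14 passage 1 it was 2271, 2418 and 2646 CPM in the sham libraries and 5494, 7114 and 3424 CPM in the IR libraries. In those of day 90 passage 2 it was 7397, 3913 and 5676 CPM in sham and 2585, 1655 and 1850 CPM in IR. Neither pair of groups overlapped. In between, day 14 passage 2 had 4594, 5559 and 5792 CPM in sham and 2834, 2999 and 4341 CPM in IR. Day 90 passage 1 had 5654, 2748 and 3220 CPM in sham and 2041, 2479 and 2503 CPM in IR. In both, every IR library was below every sham library. In bulk organoids, fewer cells of a type and less RNA per cell cannot be told apart. Krt6a alone made up 28.0% to 29.1% of the sum in sham libraries at day 14 passage 1 and 41.1% to 49.6% in sham libraries at day 90 passage 2. In IR libraries at day 90 passage 2 it made up 10.4% to 32.95%.

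**Figure D1:**
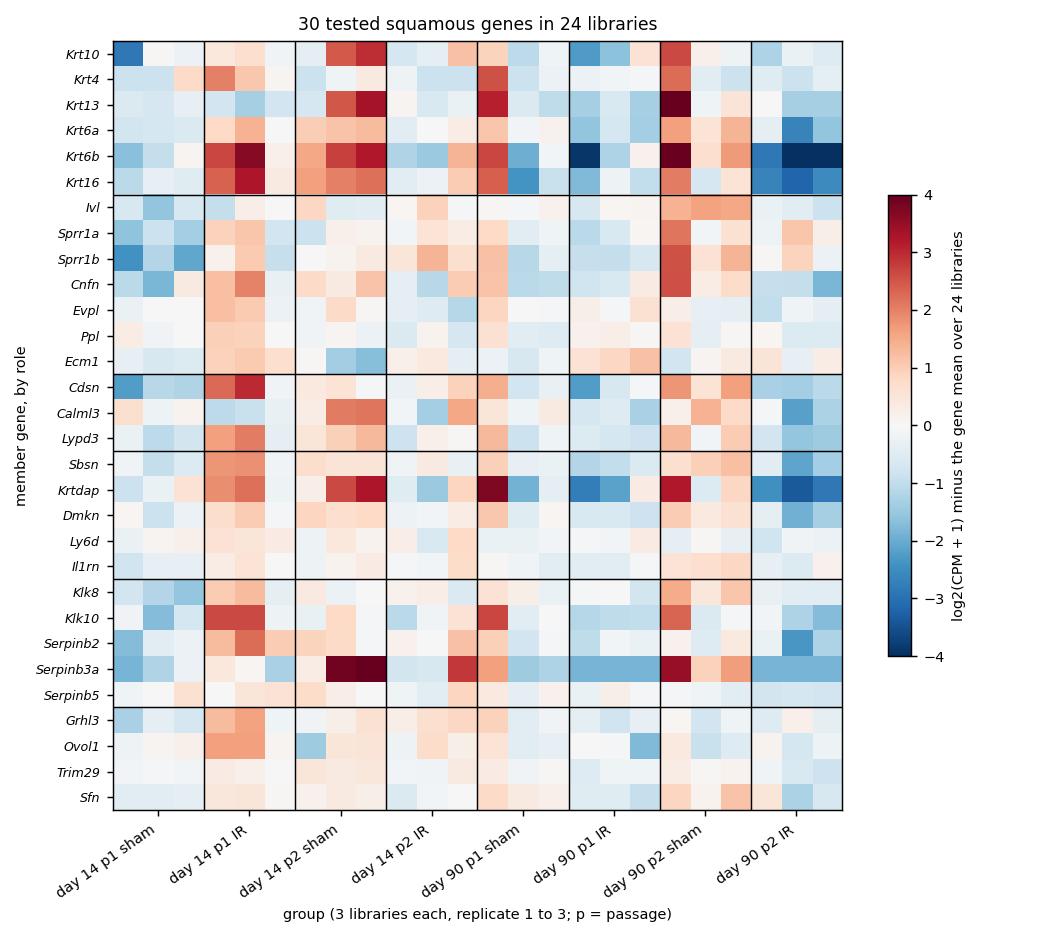
Heat map of the 30 tested members (rows, ordered by role, black lines between roles) in the 24 libraries (columns, 3 per group). Colour is log2(CPM + 1) minus the gene's mean over all libraries, so red is above and blue below that mean; IR replicate 3 at day 14 passage 1 is paler than its 2 replicates, and the 3 IR libraries of day 90 passage 2 are blue for most keratins.

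Each comparison of IR with sham was tested gene by gene with edgeR's quasi-likelihood test, and a member was called when its Benjamini-Hochberg adjusted p over all 10563 tested genes was under 0.05. In IR organoids of day 14 passage 1, 1 of the 30 tested members was called, Cdsn, and it was higher; the background was 0.341% of all genes called, 0.293% higher. At day 90 passage 2, 15 of 30 were called, all lower, where 4.92% of all genes were called and 1.95% were called lower. None was called at day 14 passage 2 (background 0.0189%), with 12 members at an unadjusted p under 0.05 (6.73% of all genes) and 0 called by DESeq2 (0.301% of all genes with an adjusted p). Day 90 passage 1 gave no call either (background 0.0473%), with 7 at an unadjusted p under 0.05 (12.7%) and 2 called by DESeq2 (1.04%). At day 14 passage 1, 18 were at an unadjusted p under 0.05 (11.0%) and DESeq2 called 9 (1.16%). At day 90 passage 2 these counts were 21 (18.3%) and 16 (5.95%). The median log2 fold change of the tested members was 1.45, −0.42, −0.92 and −1.79 in the order day 14 passage 1, day 14 passage 2, day 90 passage 1 and day 90 passage 2. Over all tested genes these medians lay between −0.01 and 0.01. The members' medians were the same with Serpinb3a, the 1 tested member at 0 in a whole group, set to its bound. They could not have changed, since its fitted value and its bound both lie below the median. A fit to the compared groups alone called 5 members at day 90 passage 2 (0.835% of all genes there) and 4 at day 14 passage 1 (0.880%). Without the filter on low counts 20, 11, 14 and 25 of 38 members were called in the same order of settings, where 2.02%, 0.878%, 2.04% and 4.58% of all genes were. Leaving out single libraries also changed the counts, given here without the share of all genes in each fit. At day 90 passage 2, without sham replicate 1 there were 6 called members, without sham replicate 3 there were 9, without IR replicate 2 there were 3 and without IR replicate 3 there were 4. All 15 log2 fold changes stayed negative in each of these fits. Without IR replicate 3 of day 14 passage 1, 8 members were called there in place of 1. A gene passes the filter when enough libraries of any group show it, so these counts and medians describe the tested members and not all 40.

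By library rather than by test, 14 tested members had all IR libraries above all sham libraries at day 14 passage 1 (8.84% of all genes did) and 2 had them below (8.40%). At day 90 passage 2, 17 had all IR libraries below all sham libraries (9.64%) and 0 had them above (10.9%). Day 14 passage 2 had 1 above (6.06%) and 9 below (5.49%), and day 90 passage 1 had 2 above (9.21%) and 8 below (10.3%). The sign of the log2 fold change was positive at day 14 passage 1 and negative in the other settings for 17 of the 30 members. For 6 more (Cdsn, Il1rn, Ivl, Serpinb2, Sprr1a and Sprr1b) it was positive in both passages at day 14 and negative in both at day 90. Ecm1 was the 1 member with a positive value in all 4 settings, and Calml3 and Krt13 had negative values in all 4. Of all tested genes, 51.1% had a negative value at day 14 passage 1 and 48.7% at day 14 passage 2. At day 90 it was 50.1% in passage 1 and 48.6% in passage 2. The share of all genes with each pattern of signs was not computed.

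**Figure D2:**
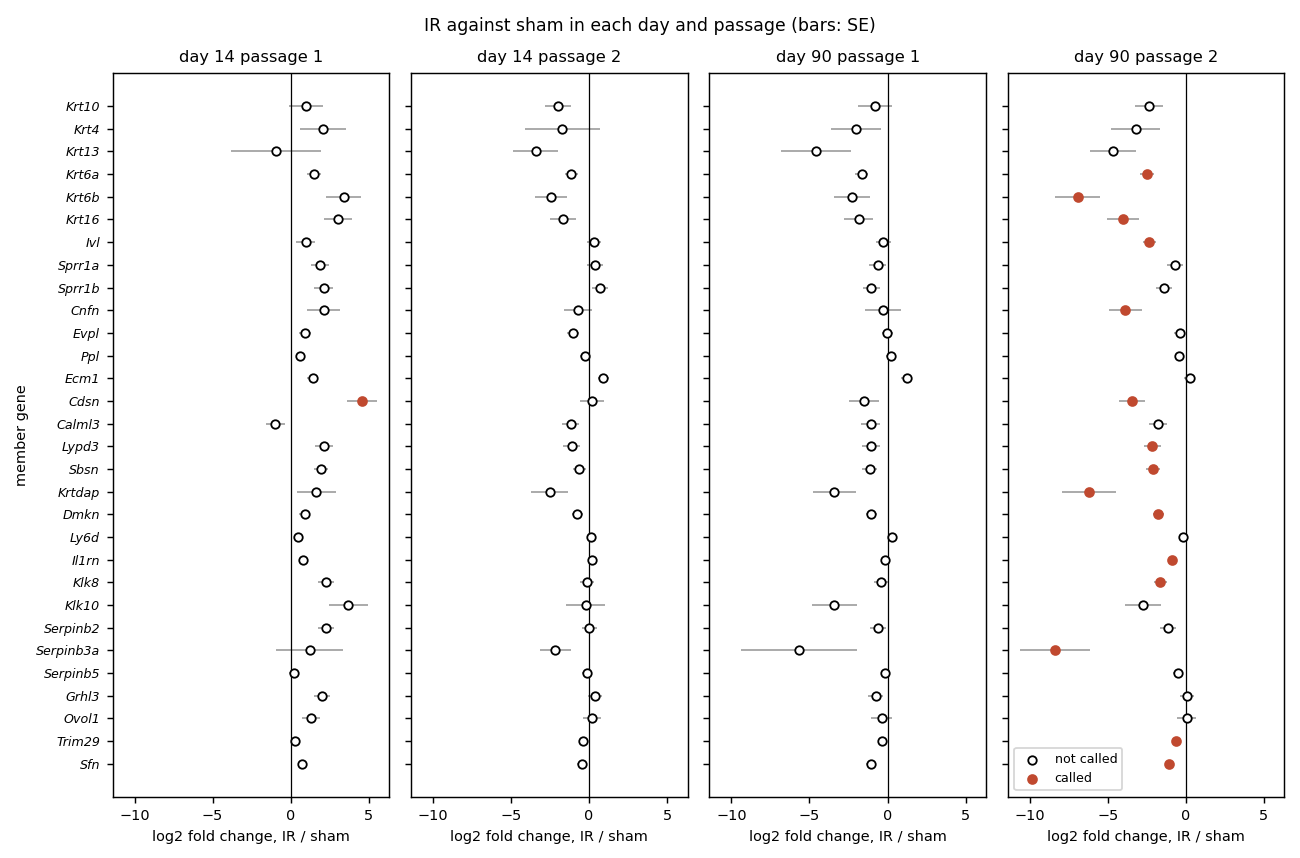
Log2 fold change of IR against sham (x axis) for the 30 tested members (y axis, in order of role) in the 4 settings, with bars of 1 SE; red points were called at an adjusted p under 0.05. The 1 red point at day 14 passage 1 is Cdsn at 4.54, and the 15 red points at day 90 passage 2 run from −0.66 for Trim29 to −8.36 for Serpinb3a.

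Among the keratins, the stress-induced Krt6a, Krt6b and Krt16 fell after IR at day 90 passage 2. These were the 3 calls among the 6 tested keratins, where 1.95% of all genes were called lower. Krt6a (ENSMUSG00000058354) stood at 3442, 1607 and 2813 CPM in sham and 852, 171 and 367 CPM in IR libraries, which is −2.50 as a log2 fold change (SE 0.45, adjusted p = 0.00268 with edgeR). All IR libraries lay below all sham libraries. Its levels at day 14 passage 1 were 660.4, 680.3 and 741 CPM in sham and 1916, 2883 and 1114 CPM in IR, the other way round and again with no overlap, but the difference of 1.505 (SE 0.44, adjusted p = 0.155) was not called. In passage 2 of day 14, Krt6a was at 2149.7, 2424 and 2645 CPM in sham and 815, 1099 and 1359.6 CPM in IR (−1.14, adjusted p = 0.646). In passage 1 of day 90 it was at 2385, 1021 and 1240.2 CPM in sham and 368, 668 and 429 CPM in IR (−1.66, adjusted p = 0.123). Krt6a was thus lower in every IR library than in any sham library of its setting in 3 of the 4 settings, with a call in 1 of them. The sample titles do not say whether the passages of a day came from the same glands, so the settings may not be independent.

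Krt6b (ENSMUSG00000023041), the close relative and chromosomal neighbour of Krt6a, was at 578, 59.3 and 123 CPM in sham and 4.17, 0 and 1.22 CPM in IR libraries at day 90 passage 2 (−6.93, SE 1.46, adjusted p = 0.00760). Krt6b at day 14 passage 1 was at 10.8, 18.6 and 40.04 CPM in sham and 241, 471 and 42.7 CPM in IR (3.39, adjusted p = 0.238). IR replicate 3 stood next to the sham libraries there. Krt16, the partner keratin of the Krt6 proteins, was at 159.7, 23.4 and 56.0 CPM in sham and 5.06, 3.34 and 5.68 CPM in IR at day 90 passage 2 (−4.06, SE 1.03, adjusted p = 0.0220). Sham replicate 1 was far above the other sham libraries in both genes, and both groups still did not overlap. No 50-base stretch of the last 400 bases of annotated Krt6a and Krt6b transcripts was identical between the genes, while 5.13% of those of Krt16 also occurred in Krt14, Krt17 or Gm11597. The treatment of shared reads by the authors' counting tool is not stated in the sources used here.

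The keratins of ordinary suprabasal layers were not called in any comparison, and some of their replicates lay far apart. Krt10, a suprabasal keratin of epidermis, had a log2 fold change of −2.39 (adjusted p = 0.146) at day 90 passage 2, and Krt4 and Krt13, the suprabasal pair of oral and oesophageal mucosa, had −3.21 (adjusted p = 0.282) and −4.67 (adjusted p = 0.0682). Krt13 shows the spread: sham replicate 1 at day 90 passage 2 had 44.9 CPM and the other sham libraries 1.22 and 2.63 CPM, while IR had 1.49, 0 and 0 CPM. The sham libraries of day 14 passage 2 were at 0.568, 13.0 and 24.5 CPM. Krt78 was not tested and had 17 counts over the IR libraries of day 14 passage 1 and 0 over the sham libraries, at least 5.53-fold higher when the group at 0 is set to a floor of 3 counts in all. Krt1, the partner of Krt10 in epidermis, had 1 count in all libraries together.

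**Figure D3:**
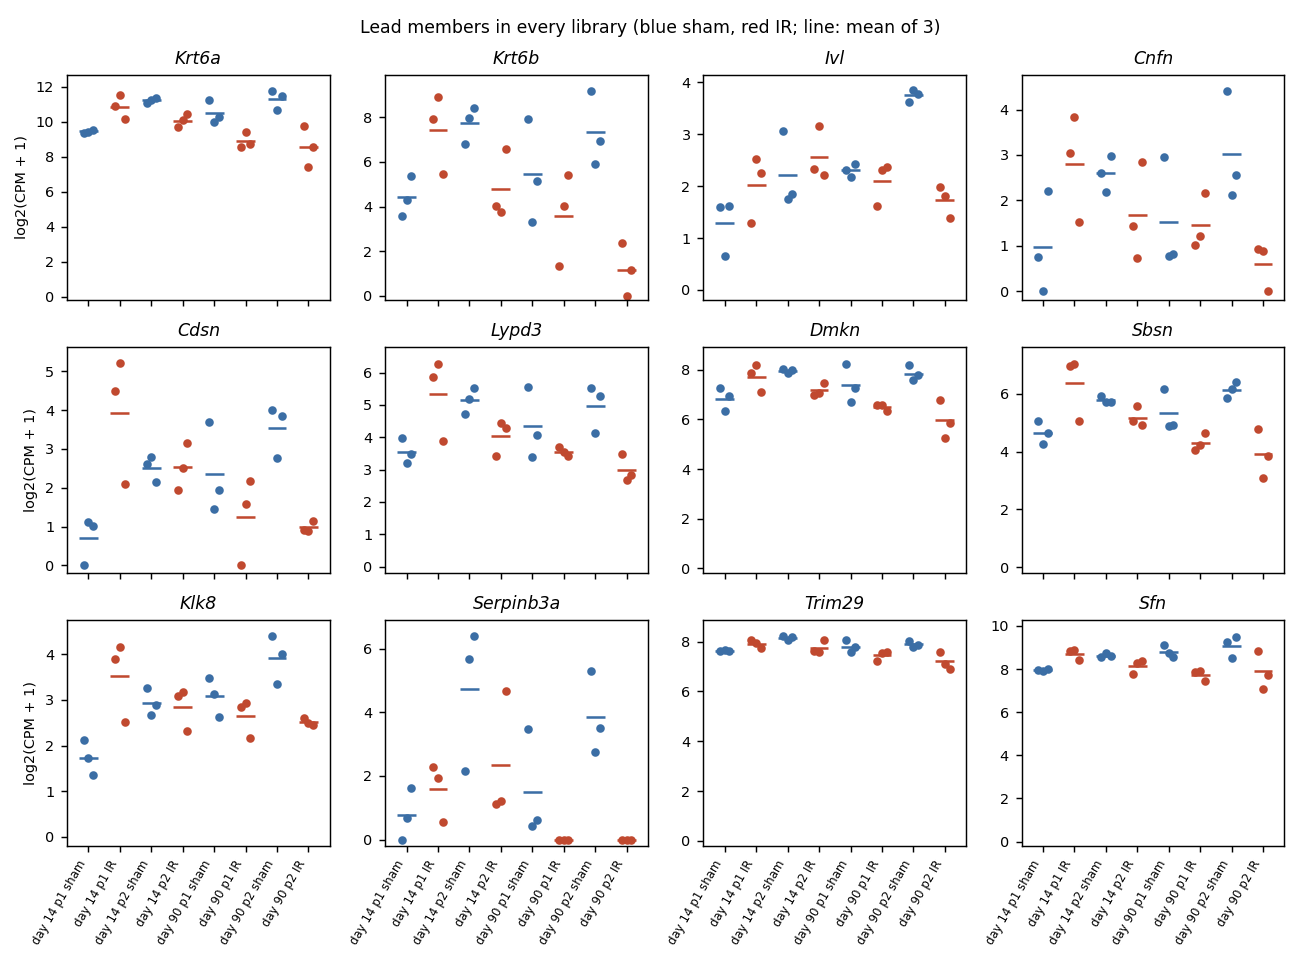
Levels of 12 members, 2 per role, as log2(CPM + 1) in each library (points, blue sham and red IR) with the mean of 3 (lines), over the 8 groups on the x axis. In Krt6a, Sbsn, Dmkn, Cdsn and Ivl the red points of day 90 passage 2 lie below all blue points of that setting, and Serpinb3a is at 0 in all 6 IR libraries of day 90.

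Of the 7 tested envelope precursors, 2 fell at day 90 passage 2, Ivl and Cnfn (1.95% of all genes were called lower). These were the only calls of precursors in the 4 settings. At day 14 passage 1 all 7 had positive values, with a median of 1.404, and Ecm1, Sprr1a and Sprr1b were above sham in every IR library. Ivl (ENSMUSG00000049128) encodes involucrin, the glutamine-rich scaffold on which the envelope is built. It stood at 11.4, 13.4 and 12.8 CPM in sham and 2.98, 2.51 and 1.62 CPM in IR libraries (−2.35, SE 0.42, adjusted p = 0.00268). The replicates lay close together in both groups, and sham at day 90 passage 2 was the highest of the 8 groups. In the other settings Ivl was between 0.582 and 7.96 CPM in every library, and its log2 fold changes of 0.97, 0.30 and −0.26 were not called. Its call at day 90 passage 2 was the only one of the 15 that held under all 14 alternatives.

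Cnfn (ENSMUSG00000063651), cornifelin, a small envelope component, was at 20.4, 3.34 and 4.88 CPM in sham and 0.893, 0.836 and 0 CPM in IR libraries at day 90 passage 2 (−3.88, SE 1.03, adjusted p = 0.0298). The other precursors did not pass there. Sprr1b, a small proline-rich crossbridging protein, was at 414, 104.6 and 179 CPM in sham and 72.6, 129 and 59.6 CPM in IR (−1.42, adjusted p = 0.124). Its relative Sprr1a had −0.71 (adjusted p = 0.4996). In both genes the groups overlapped. Evpl and Ppl, the plakins envoplakin and periplakin that link the envelope to desmosomes and keratin, had −0.40 and −0.42. Ecm1, a secreted glycoprotein of the upper epidermis, had 0.23 (adjusted p = 0.788). It had 1.404 at day 14 passage 1 (adjusted p = 0.0772), where its sham libraries were at 97.2, 78.6 and 83.7 CPM and its IR libraries at 236, 254 and 197 CPM with no overlap.

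The remaining precursors were too scarce to test. Sprr2d had 82 counts over the sham libraries of day 90 passage 2 and 1 over the IR libraries, a ratio of 72.5 (95% interval 12.7 to 2900, counting error only). Sprr3 had 28 and 0 counts, at least 8.26-fold lower in IR. Both lie in the gene cluster of the small proline-rich proteins with Sprr1a and Sprr1b, and these sums over a group carry no replicate test.

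Among enzymes and adhesion molecules of the envelope, Cdsn was the member called in both directions. Cdsn (ENSMUSG00000039518), corneodesmosin, the glycoprotein that turns desmosomes into corneodesmosomes, was at 0, 1.16 and 1.03 CPM in sham and 21.6, 35.9 and 3.28 CPM in IR libraries at day 14 passage 1. On the log2 scale the difference was 4.54 (SE 0.96, adjusted p = 0.0460). In the latest setting, day 90 passage 2, it was at 14.98, 5.78 and 13.5 CPM in sham and 0.893, 0.836 and 1.22 CPM in IR (−3.47, SE 0.84, adjusted p = 0.0178). The groups did not overlap in either setting, and the direction was opposite. The call at day 14 passage 1 did not hold when any sham replicate, or the first or second IR replicate, was left out. It was also lost with a block on replicate number, and the highest adjusted p over all alternatives was 0.291 with edgeR. Cdsn was not called at day 14 passage 2 (0.19) and day 90 passage 1 (−1.51), and the groups overlapped.

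Lypd3 (ENSMUSG00000057454), a GPI-anchored adhesion protein of suprabasal cells, was at 45.2, 16.4 and 37.6 CPM in sham and 10.1, 5.43 and 6.08 CPM in IR libraries at day 90 passage 2 (−2.15, SE 0.55, adjusted p = 0.0246). Its sham libraries at day 14 passage 1 were at 14.9, 8.15 and 10.3 CPM and its IR libraries at 57.7, 76.5 and 13.6 CPM (2.12, adjusted p = 0.106). IR replicate 3 overlapped the sham range in that setting. Calml3, a calmodulin-like protein of differentiated epithelium, had negative values throughout, from −0.97 at day 14 passage 1 to −1.81 at day 90 passage 2 (adjusted p = 0.0726), and was not called. The crosslinking enzymes Tgm1 and Tgm3 were nearly silent, with 44 and 12 counts over all 24 libraries, and were not tested.

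The secreted and surface products had 4 members lower of 5 tested at day 90 passage 2 (1.95% of all genes were called lower). Suprabasin (Sbsn, ENSMUSG00000046056), dermokine (Dmkn, ENSMUSG00000060962) and Krtdap, a keratinocyte differentiation-associated secreted protein, are consecutive genes, and their promoters are printed above. Sbsn was at 56.6, 70.2 and 83.8 CPM in sham and 26.5, 7.52 and 13.4 CPM in IR libraries (−2.11, SE 0.44, adjusted p = 0.00736). Dmkn was at 289, 191 and 221 CPM in sham and 109, 37.6 and 56.8 CPM in IR (−1.77, SE 0.36, adjusted p = 0.00657). Krtdap was at 94.1, 6.08 and 17.3 CPM in sham and 0.893, 0 and 0.406 CPM in IR (−6.19, SE 1.74, adjusted p = 0.0396). All 3 were without overlap, and in all 3 IR replicate 2 was the lowest library. Il1rn, the antagonist of the interleukin 1 receptor, fell less, from 75.8, 82.7 and 92.4 CPM in sham to 41.1, 35.1 and 58.8 CPM in IR (−0.89, SE 0.23, adjusted p = 0.0249). Ly6d, a surface marker of squamous and basal cells, had −0.16 (adjusted p = 0.796), with 545, 725 and 549 CPM in sham and 399.7, 629 and 595 CPM in IR.

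At day 14 passage 1 the same genes had positive values and none was called. Sbsn was at 32.4, 18.0 and 24.1 CPM in sham and 124, 130.4 and 32.4 CPM in IR libraries (1.93, adjusted p = 0.0611). The lowest IR library, replicate 3, lay at the highest sham library. Dmkn was at 153, 79.1 and 122 CPM in sham and 236, 291 and 136 CPM in IR (0.90, adjusted p = 0.352). Both were, at day 14 passage 2, below sham in every IR library without a call, at −0.62 for Sbsn and −0.76 for Dmkn, and the same held at day 90 passage 1, at −1.15 and −1.03. Part of the annotated Sbsn transcript end (29.7% of its 50-base stretches) is shared with Tmem147os, so reads of the 2 genes may not be told apart. Il36a, a cytokine of the interleukin 1 family, had 53 counts in all and was not tested.

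Among proteases and inhibitors, Klk8 and Serpinb3a fell at day 90 passage 2 out of 5 tested members, against 1.95% of all genes called lower. Klk8 (ENSMUSG00000064023), a kallikrein of the upper epidermis, was at 20.1, 9.12 and 15.02 CPM in sham and 5.06, 4.60 and 4.46 CPM in IR libraries (−1.63, SE 0.39, adjusted p = 0.0178). Klk8 at day 14 passage 1 was at 3.38, 2.33 and 1.54 CPM in sham and 13.9, 17.01 and 4.69 CPM in IR (2.25, adjusted p = 0.0534), which did not overlap and narrowly missed the threshold. Serpinb3a (ENSMUSG00000044594), an intracellular protease inhibitor of the squamous cell carcinoma antigen family, was at 38.9, 5.78 and 10.5 CPM in sham at day 90 passage 2 and at 0 in all 3 IR libraries. That is 177 against 0 counts, at least 52.2-fold lower (adjusted p = 0.0360), and IR libraries of day 90 passage 1 had none either. Its sham libraries at day 14 passage 2 were at 3.41, 50.8 and 83.1 CPM, so that replicates of 1 group spanned a wide range. Serpinb3a shares 1.63% of its transcript end with Serpinb3b. Its call at day 90 passage 2 held in 7 of 14 alternatives and in 1 of 6 fits without 1 library. The call was lost with the Gm42418 share as a covariate and in the fit to the compared groups alone.

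Serpinb2, the inhibitor of plasminogen activators known as PAI-2, had 2.27 (adjusted p = 0.0553) at day 14 passage 1 and −1.12 (adjusted p = 0.231) at day 90 passage 2. Part of its annotated end (29.0%) is shared with Serpinb10. Klk10, another kallikrein, had 3.70 (adjusted p = 0.246) and −2.73 (adjusted p = 0.198), and Serpinb5, maspin, had 0.18 and −0.54. None of these 3 was called in any of the 12 comparisons. Klk6 had 28 counts in all and was not tested.

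Of the 4 regulators, Trim29 and Sfn fell at day 90 passage 2, where 1.95% of all genes were called lower. Both fell by smaller amounts than most structural genes called there. Trim29 (ENSMUSG00000032013), a tripartite motif protein of basal and squamous epithelium, was at 261, 217 and 235 CPM in sham and 193, 138 and 118 CPM in IR libraries (−0.66, SE 0.17, adjusted p = 0.0272). Sfn (ENSMUSG00000047281), the epithelial 14-3-3 sigma protein, was at 601, 365 and 726 CPM in sham and 459, 136 and 210.1 CPM in IR (−1.07, SE 0.30, adjusted p = 0.0438). The groups overlapped in Sfn, where IR replicate 1 was above sham replicate 2, and did not in Trim29. The calls of Trim29 and Sfn at day 90 passage 2 each held in 8 of 14 alternatives. Of the 6 fits without 1 library, 2 kept the call in each gene. Both calls were lost with the Gm42418 share as a covariate and in the fit to the compared groups alone. The transcription factors Grhl3, a grainyhead factor of barrier formation, and Ovol1, a zinc finger factor of epidermal differentiation, both had 0.04 (adjusted p = 0.983 and 0.988). Grhl3 at day 14 passage 1 had 2.01 (adjusted p = 0.0772), with 2.03, 4.66 and 3.59 CPM in sham and 16.8, 21.7 and 5.63 CPM in IR, and Ovol1 had 1.32 (adjusted p = 0.396).

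Whether the IR effect differed between settings was tested as a difference of log2 fold changes. In the 4 planned comparisons, day 90 against day 14 in each passage and passage 2 against passage 1 at each day, edgeR called 0 of the 30 tested members. The background was 0.0189% and 0.00947% of all genes for day in passages 1 and 2, and 0% for passage at both days. At an unadjusted p under 0.05 there were 17 and 9 members for day in passages 1 and 2 (8.11% and 5.14% of all genes), and 16 and 5 for passage at days 14 and 90 (6.90% and 3.85%). DESeq2 called 7, 0, 3 and 0 in the same order, against 0.227%, 0.0189%, 0.214% and 0.0284% of all genes. The members' median differences were −2.59, −1.11, −2.09 and −0.74.

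The 2 outer settings were compared in a test added after their values had been seen. The IR effect was lower at day 90 passage 2 than at day 14 passage 1 in 13 of 30 tested members and higher in 0, where 1.06% of all genes were called, 0.719% lower. All 30 differences were negative, with a median of −3.38 against 0.04 over all genes. The keratins Krt6b (−10.32), Krt16 (−7.07) and Krt6a (−4.001) and Cdsn (−8.01) were among the 13. The others were Lypd3 (−4.27), Sbsn (−4.04), Klk8 (−3.88), Sprr1b (−3.54), Serpinb2 (−3.40), Ivl (−3.32), Dmkn (−2.67), Sfn (−1.82) and Il1rn (−1.66). The count was 8 without sham replicate 1 or IR replicate 2 of day 14 passage 1 and 17 without its IR replicate 3. Shares of all genes in these fits are not given here. Since this comparison joins 2 changes, of day and of passage, its differences belong to neither alone.

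**Figure D4:**
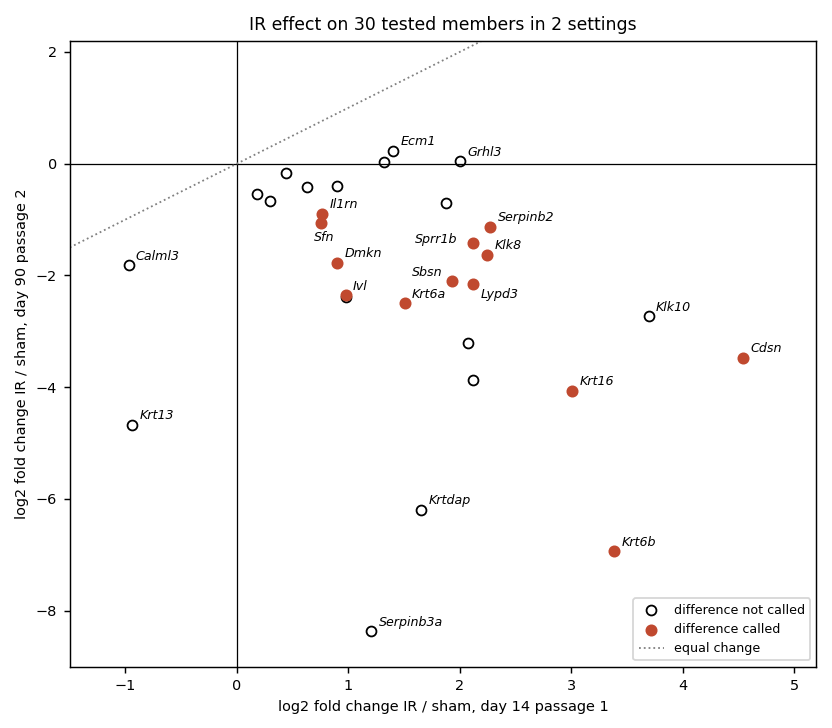
Log2 fold change of IR against sham at day 14 passage 1 (x axis) and day 90 passage 2 (y axis) for the 30 tested members; red points are the 13 members whose difference between the settings was called, and the dotted line marks equal change. All 30 points lie below the dotted line, from Ly6d near the origin to Krt6b at 3.39 and −6.93.

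In sham organoids, passage moved 1 member at each day. At day 14 Krt6a was higher in passage 2 than in passage 1 by 1.79 (SE 0.44, adjusted p = 0.0444, background 1.18% called, 0.218% higher), at the levels given above. At day 90 Ivl was higher in passage 2 by 1.64 (SE 0.40, adjusted p = 0.0397, background 1.36% called, 0.445% higher), from 3.95, 3.52 and 4.40 CPM to 11.4, 13.4 and 12.8 CPM. Each of these 2 calls was lost without any 1 of the 6 libraries compared. Over all alternatives, these included, the highest adjusted p was 0.199 for Krt6a and 0.131 for Ivl with edgeR. DESeq2 called 2 members at each day (1.74% and 2.01% of all genes), and 20 and 7 members were at an unadjusted p under 0.05 (11.4% and 14.0% of all genes). Day 90 against day 14 gave 0 called members in sham organoids of passage 1 (background 0%, 9 at an unadjusted p under 0.05 against 9.70% of all genes) and of passage 2 (background 0.426%, 7 at an unadjusted p under 0.05 against 13.7%), and DESeq2 called 0 in both (0.492% and 1.11% of all genes). By group mean, 13 of the 30 tested members were highest in IR organoids of day 14 passage 1 and 10 in sham organoids of day 90 passage 2. The lowest of the 8 groups was IR at day 90 passage 2 for 15 members and sham at day 14 passage 1 for 7. The order of groups was not computed over all genes, so these 4 counts have no background.

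Basal duct transcripts moved in the same direction as the squamous genes at day 90 passage 2, and luminal ones in the other. The 6 basal markers summed to 8235, 5519 and 7476 CPM in sham and 5860, 1866 and 2566 CPM in IR libraries, which overlapped through IR replicate 1. Trp63, the master regulator of stratified epithelium, was called lower (−1.14, SE 0.25, adjusted p = 0.00939), as was Krt15 (−3.08, SE 0.78, adjusted p = 0.0221). The basal keratins Krt5 (−1.38, adjusted p = 0.0705) and Krt14 (−0.99, adjusted p = 0.0965) were not. Acinar markers summed to 290 to 1224 CPM in sham and 151 to 267 CPM in IR there, without overlap. Most of that sum was Pip, at 88.8%, 95.3% and 95% in sham and 86.7%, 81.7% and 79.9% in IR libraries. The separation is therefore mainly of Pip, and the other acinar markers were not summed apart. The luminal keratins Krt8 (1.75, SE 0.21) and Krt18 (1.58, SE 0.22) rose, and the 7 luminal markers summed to 1340, 1591 and 1663 CPM in sham and 2439, 2570 and 3117 CPM in IR. As a percentage of the basal sum, the 40 squamous members came to 70.9% to 89.8% in sham and 44.1% to 88.7% in IR libraries, which overlapped. At day 14 passage 1 that percentage was 35.8% to 54.1% in sham and 64.3% to 103% in IR, with no overlap, while the basal sum, most of it Krt5 and Krt14, was 4474 to 6344 CPM in sham and 5316 to 6994 CPM in IR. The other basal markers did not all follow that sum. Trp63 was at 79.0, 86.7 and 91.4 CPM in sham and 26.9, 41.6 and 58.1 CPM in IR at day 14 passage 1 (−1.02, adjusted p = 0.0854), where 28 of the 30 tested squamous members had positive values. Itga6 (−0.53) and Krt15 (−1.56) were also below sham in every IR library there, and none of the 6 basal markers was called. Myoepithelial markers summed to 24.4 to 36.5 CPM in sham and 4.33 to 8.91 CPM in IR at day 14 passage 1, and leukocyte markers to 8.10 to 9.89 CPM and 17.8 to 50.5 CPM, both without overlap. Lyz2, the 1 tested leukocyte marker, was at 4.05, 6.98 and 7.70 CPM in sham and 40.9, 14.2 and 14.1 CPM in IR (1.88, adjusted p = 0.401). The Gm42418 share also moved at day 90 passage 2, with 15.5%, 14.3% and 13.1% in sham and 13.5%, 24.3% and 23.02% in IR libraries. The part of these markers and of that share in the squamous values was not tested, beyond a fit with the Gm42418 share as a covariate, in which 11 of the 15 calls held. The calls lost in that fit were those of Il1rn, Serpinb3a, Trim29 and Sfn.

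**Figure D5:**
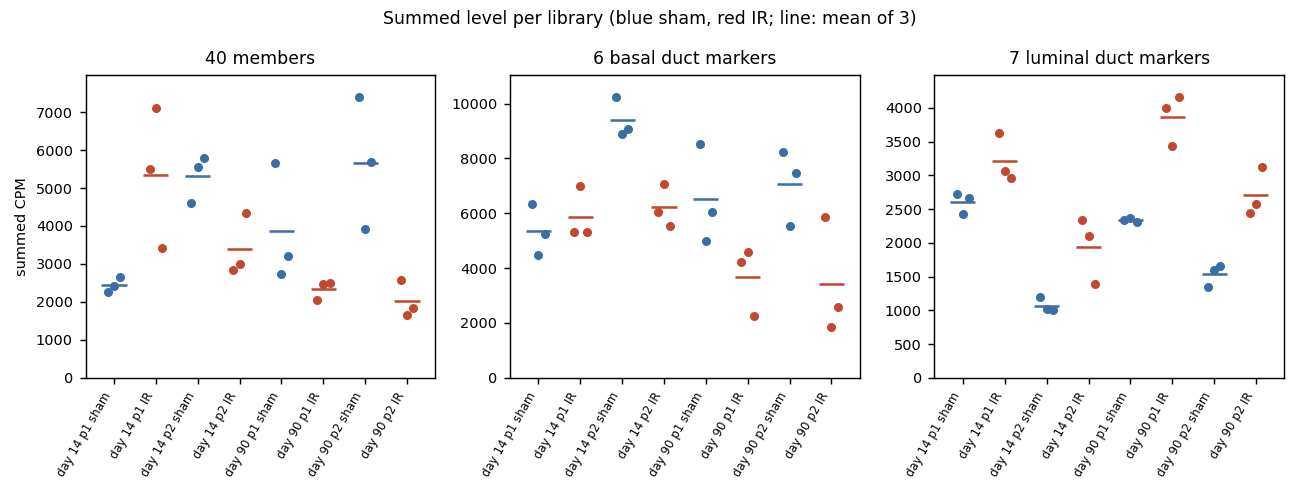
Summed CPM per library (points, blue sham and red IR; lines, mean of 3) of the 40 members, the 6 basal duct markers and the 7 luminal duct markers over the 8 groups, on linear axes from 0. The squamous sum is higher in IR at day 14 passage 1 and lower in IR in the other 3 settings, while the luminal sum is higher in every IR library than in any sham library of its setting.

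Further genes of cornification, 103 listed and 44 tested, were counted in the same way. At day 90 passage 2, 6 were lower and 2 higher (1.95% and 2.97% of all genes), with a median of −0.54, and at day 14 passage 1, 1 was higher (0.293% of all genes), with a median of 0.62. At day 14 passage 2 and day 90 passage 1 none was called, with medians of −0.31 and −0.29. Lower at day 90 passage 2 with the smallest p were Maf (−1.53, SE 0.31, adjusted p = 0.00578), a transcription factor of late keratinocyte differentiation, and Spink5 (−3.60, SE 0.82, adjusted p = 0.0123), the kallikrein inhibitor LEKTI. Higher were Cldn4, a tight junction claudin (1.88, SE 0.42, adjusted p = 0.0115), and Mal, a membrane trafficking proteolipid (1.77, SE 0.43, adjusted p = 0.0174). Mal was also the gene called at day 14 passage 1 (2.05, adjusted p = 0.0455), so it was called higher in both settings. By role, against the same shares of all genes, calls at day 90 passage 2 were 3 lower of 15 regulators, 2 lower of 6 proteases and inhibitors, 1 lower of 9 crosslinking, lipid and processing enzymes and 2 higher of 6 junction and surface genes. Of 6 further envelope precursors and 2 keratins tested, none was called.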

How the data were processed

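The deposited files hold unnormalized counts of reads on each gene, 1 table for each of the 24 libraries, as the authors made them. Libraries were made with the QuantSeq 3' kit per the labels' protocols, so a count does not grow with transcript length. Per the submitters' processing notes, bcl2fastq and GRCm39 were used. No source used here names the aligner, counter, annotation or strand setting, so reads of overlapping or antisense genes may not be told apart. Each table held 47643 genes and 5 summary lines, excluded from all sizes and tests. Reads assigned to no gene made up 11.5% to 26.5%. Symbols were looked up by identifier in an older annotation (47224 matched, and Il36a through its older name), used for names only, and the promoter coordinates are of another build than the counts.

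Counts on genes were 1151608 to 3189466 per library (median 2091528.5), so a gene at a few CPM rests on few reads. No pair of replicates was a duplicate, with a chi-square of 2.20 to 29.5 for each degree of freedom. Groups came from the labels. The quasi-likelihood test of edgeR 4.0.16 (R 4.3.3) was run on the counts with TMM factors and the filterByExpr filter on the 8 groups, with all 24 libraries and 1 mean per group. Tests were two-sided, with Benjamini-Hochberg adjustment over 10563 genes and calls at 0.05. A standard error (SE) was taken as the log2 fold change divided by the square root of F. CPM use TMM factors. There were 12 planned comparisons and 1 added later. The 40 members, the further lists and the tests were chosen with earlier results of these data known.

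Values in every library are given for 12 lead members, the 2 of each role called in the most comparisons (ties by the smallest adjusted p). Any other member may be named, as may up to 3 called genes per direction of the further cornification list, the basal and luminal keratins Krt5, Krt14, Krt8 and Krt18, and Trp63. Alternatives were DESeq2 1.42.0, other scaling, no filter or a filter of 5 CPM in 3 libraries, a block on replicate number, a fit to the compared groups alone, the Gm42418 share as a covariate, and each library left out in turn. Same-numbered replicates did not deviate together in any comparison by the rule that every correlation exceed 0.1, so the numbers were not taken as pairs. The scripts were tested on simulated counts. Intervals and floors (3 counts) cover counting error only.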

Additional observations from a re-analysis of the deposited data

Results flagged for a closer look

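The effect of IR on 13 of the 30 tested members differed between day 90 passage 2 and day 14 passage 1, as a test of the difference of log2 fold changes that was added after both sets of values had been seen. All 13 were lower at day 90 passage 2, where 1.06% of all genes were called and 0.719% called lower. The count of 13 changed when single libraries were left out, as given below. In the 4 planned comparisons of the IR effect between settings, 0 of the 30 tested members were called, against 0% to 0.0189% of all genes. The added comparison changes both day and passage, so its differences belong to neither alone. No outlier statistic was computed within groups of 3 libraries.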

How the results depend on the processing

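All 251 values of the 18 called member results kept their sign under the alternatives; 174 kept their call and 77 lost it. For numbers of called members, the cause of a change was not tested, except that without the filter all 38 members with a count were tested. Some counts here and in the next paragraph have no share of all genes beside them. For these, a change in the members cannot be told from a change in calls over all genes. Without the filter the counts in IR against sham were 20 (day 14 passage 1), 11 (day 14 passage 2), 14 (day 90 passage 1) and 25 (day 90 passage 2), in place of 1, 0, 0 and 15; the shares of all genes called were 2.02%, 0.878%, 2.04% and 4.58% in place of 0.341%, 0.0189%, 0.0473% and 4.92%. For the difference of IR effects by day they were 16 and 11 in passages 1 and 2, by passage 17 and 4 at days 14 and 90, and 26 in place of 13 for the added comparison (0.417% to 2.10% of all genes). In sham organoids they were 17 and 12 for passage at days 14 and 90, and 11 and 8 for day in passages 1 and 2 (0.979% to 3.09% of all genes). DESeq2 gave 9 at day 14 passage 1 and 2 at day 90 passage 1 for IR, 7 for the difference by day in passage 1, 3 for that by passage at day 14, and 2 and 2 for passage in sham organoids. Total counts as the scale gave 3 for IR at day 14 passage 1, 2 for the difference by day in passage 1 and 2 for day in sham organoids of passage 2. The Gm42418 covariate gave 5 for IR at day 14 passage 1 and 0 for passage in sham organoids at day 90. Only the compared groups gave 4, 1 and 5 for IR at day 14 passage 1, day 90 passage 1 and day 90 passage 2, 2 for the difference by day in passage 1, and 8 and 2 for passage in sham organoids at days 14 and 90.

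The replicate block gave 0 in place of 1 for passage in sham organoids at day 14 and 2 in place of 1 at day 90. It also ended the call of Cdsn at day 14 passage 1, and kept 15 calls at day 90 passage 2. In no comparison did every sample correlate best with the sample of its own number. Leaving out 1 library gave 0 to 8 calls for IR at day 14 passage 1, 0 to 1 at day 14 passage 2, 0 to 0 at day 90 passage 1 and 3 to 16 at day 90 passage 2. For the difference of IR effects it gave 0 to 6 and 0 to 0 by day in passages 1 and 2, 0 to 3 and 0 to 0 by passage at days 14 and 90, and 8 to 17 in the added comparison. In sham organoids it gave 0 to 1 and 0 to 2 for passage at days 14 and 90, and 0 to 0 and 0 to 2 for day in passages 1 and 2. Depth limits the scarce members: 8 of the 40 had counts but did not pass the filter, and 2 had none.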
